A study of Mus musculus with 74 samples.

Results

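Gm13251 is a mouse KRAB zinc finger protein (KRAB-ZFP), and its ChIP-seq peaks in F9 EC cells, a mouse embryonal carcinoma line, are described here. The rule took every row of the deposited peak table that carries the name Gm13251, which gave 3300 peaks out of 53255 in the table, and set them against the 17428 peaks of the other 17 F9 samples with a FLAG tag. The cells stably expressed Gm13251 with an N-terminal 3XFLAG tag from a codon-optimised reading frame in a transposon vector, and drug-resistant clones were pooled, so the protein was overexpressed in a mixed population. Chromatin was cross-linked with formaldehyde and precipitated with the FLAG antibody F1804, and a peak was kept when MACS called it over both the F9 input and a FLAG control ChIP, at p under 1e-10 and an enrichment over 20. The comparison samples were the same cells carrying another FLAG-tagged KRAB-ZFP each, precipitated with the same antibody and called over the same controls. Of those 17, 11 had the same thresholds and 6 had looser ones. Every protein was assayed in 1 sample, so no value has a replicate error, and a test over 18 samples of 1 against 17 cannot give a p below 0.0556. The table holds peaks and no reads, so neither the sequencing depth nor the level of the tagged protein could be checked.

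KRAB-ZFPs bind DNA through an array of zinc fingers, which contact neighbouring stretches of bases. Most act as repressors: KAP1 (Trim28) is the partner of the KRAB domain, and the chromatin they occupy commonly carries H3K9me3, a mark of heterochromatin. Many KRAB-ZFPs bind transposable elements. The gene Gm13251 (ENSMUSG00000070605.4) lies on the minus strand at chr4:145727747-145749016 in mm9. No Gm13251 summit lay in its body, and the nearest was 1277308 bp away.

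The sequences fall into 2 sets. The first shows the runs of A or T that flanked most peaks, and is 300 bases of mm9 around the summit, plus strand, of 4 peaks with a high fold, 2 with a run of A on the left of the summit alone and 2 with a run of T on the right alone. They are examples and not the highest of all, since they were taken among peaks outside exons and multi-copy sequence, without a tandem repeat, whose longest run lay whole within the 300 bases. The summit follows base 150 and capitals mark the longest run.

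Intron of Frmd6, chr12:71972140-71972439, fold 48.38: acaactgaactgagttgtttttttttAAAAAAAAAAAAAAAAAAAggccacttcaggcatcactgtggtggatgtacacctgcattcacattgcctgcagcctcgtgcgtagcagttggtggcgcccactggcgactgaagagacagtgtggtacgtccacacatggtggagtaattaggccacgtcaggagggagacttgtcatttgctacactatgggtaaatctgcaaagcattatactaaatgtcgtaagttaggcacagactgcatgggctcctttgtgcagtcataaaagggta

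Intron of Adam32, chr8:26043238-26043537, fold 45.52: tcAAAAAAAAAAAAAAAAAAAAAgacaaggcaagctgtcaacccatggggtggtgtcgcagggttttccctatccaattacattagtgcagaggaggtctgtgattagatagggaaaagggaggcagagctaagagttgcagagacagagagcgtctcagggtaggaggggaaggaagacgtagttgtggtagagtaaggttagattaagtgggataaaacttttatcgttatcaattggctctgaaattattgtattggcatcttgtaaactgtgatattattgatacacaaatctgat

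Intergenic near Gldc, chr19:30255498-30255797, fold 45.54: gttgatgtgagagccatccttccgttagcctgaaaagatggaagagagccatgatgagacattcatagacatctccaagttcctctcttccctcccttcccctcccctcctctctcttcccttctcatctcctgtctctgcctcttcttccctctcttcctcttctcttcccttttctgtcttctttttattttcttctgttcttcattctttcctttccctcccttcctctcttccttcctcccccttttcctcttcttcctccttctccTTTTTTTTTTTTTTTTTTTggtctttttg

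Intergenic near Htr3a, chr9:48687556-48687855, fold 41.27: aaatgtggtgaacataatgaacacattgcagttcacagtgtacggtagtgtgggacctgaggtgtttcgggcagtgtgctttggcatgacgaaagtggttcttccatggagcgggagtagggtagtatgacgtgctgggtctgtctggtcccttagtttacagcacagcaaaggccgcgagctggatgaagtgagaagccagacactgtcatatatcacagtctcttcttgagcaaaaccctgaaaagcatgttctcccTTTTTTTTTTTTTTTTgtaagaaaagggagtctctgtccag

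The second set shows a sequence shared by a small group of peaks, and is 150 bases each from 4 peaks whose windows resemble one another, among them the 2 peaks with the highest fold. They are written on the strand that puts the shared 12-base word, in capitals, in the same place.

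Minus strand, chr15:49870155-49870304, fold 62.61: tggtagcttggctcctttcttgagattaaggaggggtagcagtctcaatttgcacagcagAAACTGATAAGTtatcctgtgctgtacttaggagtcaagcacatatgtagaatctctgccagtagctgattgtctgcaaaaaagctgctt

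Minus strand, chr14:16805285-16805434, fold 58.34: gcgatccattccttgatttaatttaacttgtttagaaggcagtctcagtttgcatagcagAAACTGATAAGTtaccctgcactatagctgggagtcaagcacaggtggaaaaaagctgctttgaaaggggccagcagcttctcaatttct

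Plus strand, chr11:30397233-30397382, fold 45.38: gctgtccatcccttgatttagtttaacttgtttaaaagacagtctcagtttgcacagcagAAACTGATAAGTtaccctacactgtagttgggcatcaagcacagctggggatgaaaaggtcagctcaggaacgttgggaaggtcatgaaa

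Minus strand, chr4:121755758-121755907, fold 27.73: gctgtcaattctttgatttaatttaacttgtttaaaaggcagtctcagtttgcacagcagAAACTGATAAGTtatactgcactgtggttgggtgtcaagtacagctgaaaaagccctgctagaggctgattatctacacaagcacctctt

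The Gm13251 peaks were many and only modestly enriched. Of the other 17 FLAG samples 2 had more peaks, and the 18 samples ran from 52 peaks for Zfp534 to 5189 for Gm13152. The deposited fold enrichment, a ratio of tags in the peak to the local background, ranged from 20.0 to 62.61 with a median of 24.11. The largest share of the peaks, 59.5% (1963 of 3300, Wilson 95% interval 57.8% to 61.2%), had a fold under 25, just above the threshold of 20, and 22 peaks exceeded 40. A peak held a median of 46 tags (16 to 136), and the called width had a median of 263 bp (67 to 567). The deposited false discovery rate, which MACS estimates by swapping ChIP and control, was under 1% for 3161 peaks. It was over 5% for 18 peaks, of which 7 were among the 22 peaks over 40-fold.

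Nearly every Gm13251 peak lay beside a run of A or T in a fixed orientation. In 1692 of the 3300 peaks the plus strand held a run of at least 6 A between 50 and 200 bp to the left of the summit, and in 1721 it held a run of at least 6 T over the same distance to the right. On one strand or the other this is the same arrangement, a run of A that precedes the summit, and it is called an inward run here. An inward run was found for 3173 peaks, or 96.2% (95% Wilson interval 95.4% to 96.8%, counting error only). The opposite arrangement, T on the left or A on the right, was found for 526 peaks (15.9%). At points 1 kb to either side of the summits an inward run was found in 16.8% of 6600 positions. The measure was chosen after the values were seen.

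The runs were usually single and long. An A run on the left alone was found for 1452 peaks, a T run on the right alone for 1481 and both for 240. The longest inward run of a peak had a median length of 16 bases (interquartile range 14 to 19, longest 49). With a minimum of 14 bases, 77.6% of the peaks had an inward run, against 1.29% of the positions 1 kb away and 0.394% of the peaks for the outward arrangement. Runs of this length are frequent in the genome. Chromosomes 1 to 19, X and Y of mm9 held 205282 runs of at least 14 A or T, and 2623 of them (1.28%) had a Gm13251 summit at the inward distance.

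The position of the runs followed the called peaks closely. In 25-bp bins, A runs were centred most often between 150 and 125 bp to the left of the summit, in 18.03% of the peaks, and T runs between 125 and 150 bp to the right, in 17.7%. Within 25 bp of the summit, A and T runs each occurred in under 1% of the peaks per bin. The near end of the longest run lay a median of 122 bp from the summit (interquartile range 104 to 142). The edge of the called peak on that side lay a median of 119 bp from it. Per peak, the end of the run and the called edge differed by a median of 0 bp (interquartile range -12 to 15, negative where the run began inside the called peak), and they lay within 25 bp of each other in 2576 of 3173 peaks (81.2%). GC content was 47.2% in the 50 bp left of the summit, 39.4% at 100 to 150 bp to the left and 38.8% at that distance to the right. The runs themselves lower GC at that distance, so the dip is not an independent observation.

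**Figure D1:**
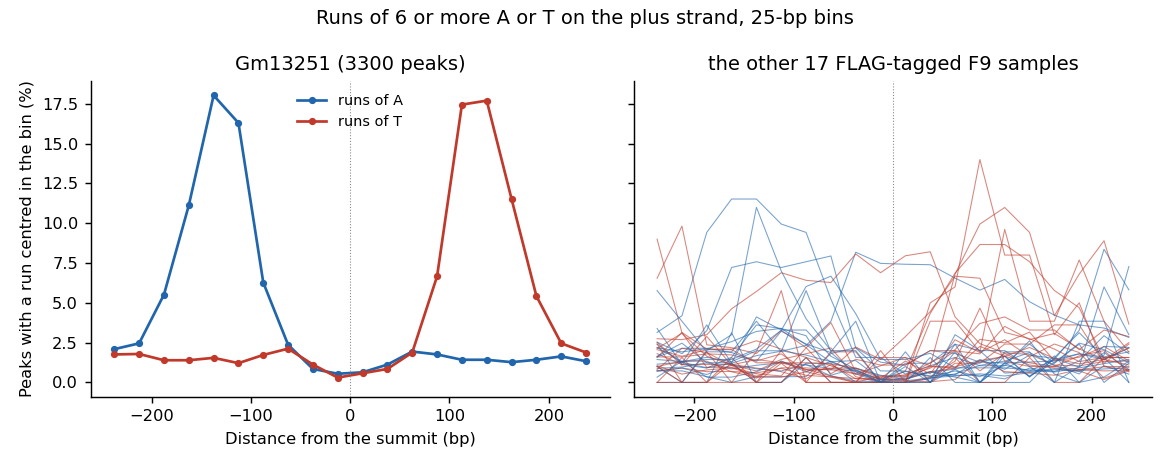
Share of peaks (vertical axis, percent) with a run of at least 6 A (blue) or 6 T (red) on the plus strand centred in each 25-bp bin, against distance from the summit in bp, for Gm13251 (left) and each of the other 17 FLAG-tagged F9 samples (right). In Gm13251 the A runs peak at 18.03% on the left and the T runs at 17.7% on the right of the summit.

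**Figure D2:**
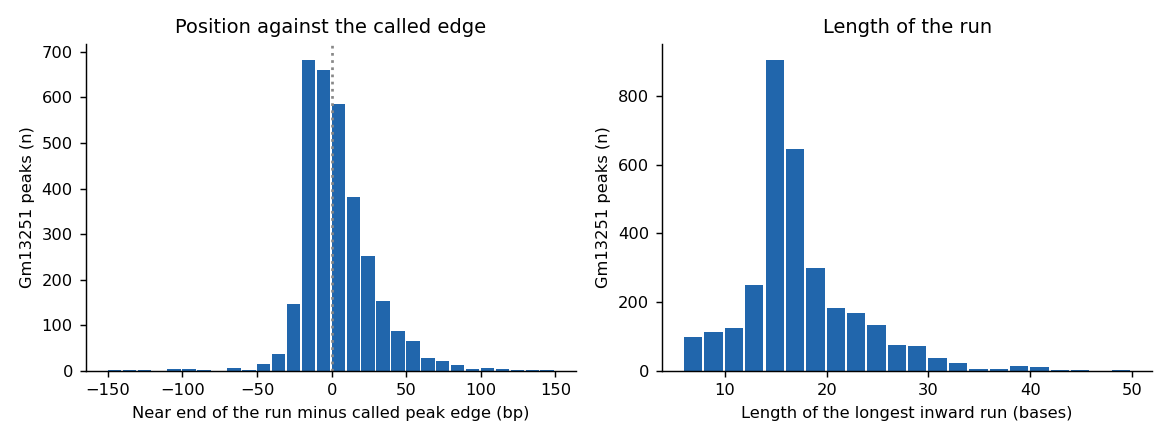
Left, number of Gm13251 peaks by the distance of the near end of the longest inward run from the called peak edge on that side, in bp, in 10-bp bins, with 0 where they coincide. Right, number of peaks by length of that run in bases. The 3173 peaks with an inward run centre on a median of 0 bp and a median length of 16 bases.

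The arrangement was about as frequent among strong as among weak peaks. With the peaks ranked by fold in 3 equal parts, an inward run was found in 96.9%, 95.7% and 95.8% of 1100 peaks each, and in 20 of the 22 peaks over 40-fold. The median fold was 24.19 where only the A run was present, 24.19 where only the T run was present, 23.31 with both and 22.96 for the 127 peaks with neither. Those 127 peaks were more often in multi-copy sequence (19.7%, against 3.65% and 5.81% with an A or a T run alone). Of them 5.51% were at most 1 kb from a transcript start, against 4.68% and 5.27% with an A or a T run alone and 4.17% with both. These are descriptions of 1 sample and carry no test.

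Among the 18 FLAG samples Gm13251 had the highest share of peaks with an inward run. The other 17 ranged from 4.69% for Gm30910 over a median of 20.6% to 79.6% for Gm13212, and their mean was 27.5% ± 21.4 (SD, n = 17). The exact two-sided permutation test over samples gave p = 0.0556, the smallest value this design allows. Adjusted by Benjamini-Hochberg over 11 measures, p was 0.611, so the difference of 68.6 percentage points does not pass the threshold. Because the measure was chosen after the values were seen, neither p can serve as evidence for the difference. After Gm13212 came Gm13247 with 67.1% and Zfp882 with 56.0%, and these 3 had looser thresholds than Gm13251. The 11 samples with the same thresholds ran from 4.69% to 33.4% for Zfp617, so Gm13251 did not overlap with them.

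The share was also high in many HA-tagged samples. Of the 40 HA-tagged F9 samples, 24 had an inward run in more than 50% of their peaks, with a maximum of 95.6% for Gm6710, so that Gm13251 was the highest of all 58 F9 samples. The 9 HA-tagged samples in ES cells ran from 2.83% to 34.2%, with a median of 13.7%. At 1 kb from the summits the 67 samples ran from 6.25% to 40.2%. According to the methods of the study, the F9 libraries were prepared with the DNA SMART kit and the ES libraries with Illumina adapters, and the ES samples also differed in cells and in peak thresholds. Library kit, cells and thresholds cannot be told apart in this contrast, and the part of library preparation in the Gm13251 result was not tested.

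**Figure D3:**
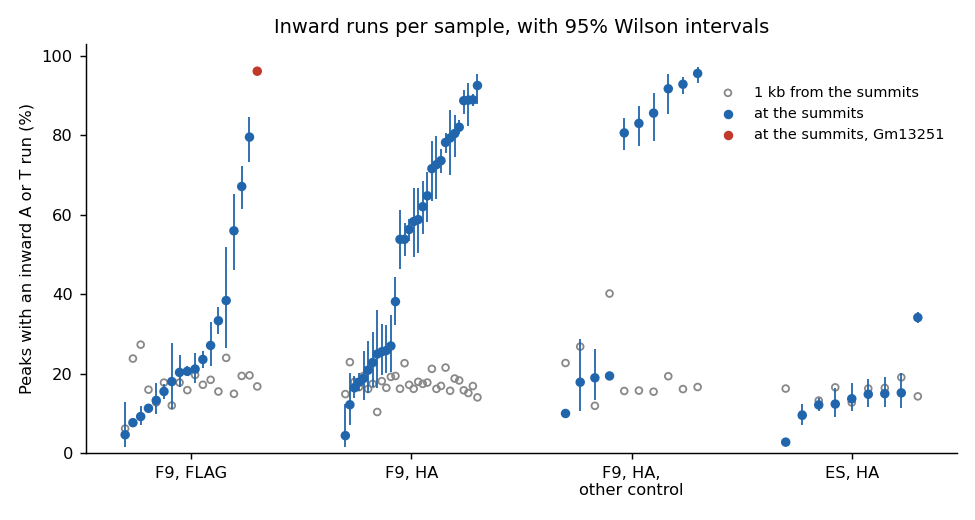
Share of peaks with an inward run (vertical axis, percent) in every sample, grouped by cells, tag and control, with 95% Wilson intervals as bars and the share 1 kb from the summits as open circles. Gm13251, in red, is the highest point with 96.2%, and the ES samples end at 34.2%.

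A group of 18 Gm13251 peaks had similar sequence at the summit. Comparison of all 3300 windows of 200 bp with one another by blastn placed 613 windows in 14 groups of at least 5 similar windows, and 1 group of 18 contained the peaks ranked 1, 2 and 9 by fold. It was singled out after its values were seen. A 12-base word, aaactgataagt, was present in 15 of the 18 windows and occurs 570 times in mm9, both strands counted. The middle of the word lay between 3 and 26 bp from the summit, with a median of 15 bp, as in the aligned stretches above. No window of the other 17 FLAG samples held the word. With so few copies in mm9, few if any of their 17428 windows would hold it at the genome-wide rate, so this absence does not set Gm13251 apart.

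The 18 peaks stood on 11 chromosomes and 4 of them lay in genes. They held a median of 77.5 tags (28 to 136) against 46 (16 to 125) in the other 3282 peaks, and their fold ranged from 20.43 to 62.61 with a median of 23.6 against 24.11. By tags, 3 of the 5 highest Gm13251 peaks belonged to the group. An inward run of at least 6 bases was found beside 14 of the 18, but one of at least 14 bases beside only 4 (22.2%), against 77.9% of the other Gm13251 peaks. The fold and the tags are the authors' values for 1 sample and the difference was not tested.

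The same sites were found with Gm13139, an HA-tagged KRAB-ZFP in F9 cells with the same thresholds and an HA control ChIP. Gm13139 peaks overlapped 16 of the 18 loci, by at least 25% of the window, and the word was present in 96 of the 169 Gm13139 windows (56.8%). Those 16 were all the loci the 2 samples shared, 9.47% of the Gm13139 loci and 0.485% of the Gm13251 loci. They were high in the Gm13139 sample, with a median fold of 92.0 (61.03 to 137.72) and a median of 167 tags, against 35.4 (20.24 to 104.11) and 51 for its other 153 peaks. Whether material carried over between the libraries had a part in these shared loci was not tested, since the table holds no reads. Of the Gm13139 peaks with the word, 80 had no Gm13251 peak. Zfp808, another HA-tagged sample, overlapped 9 of the 18 loci, with the word in 1 of its 544 windows. Among the FLAG samples, Gm13212 and Gm13247 overlapped 1 locus each.

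**Figure D4:**
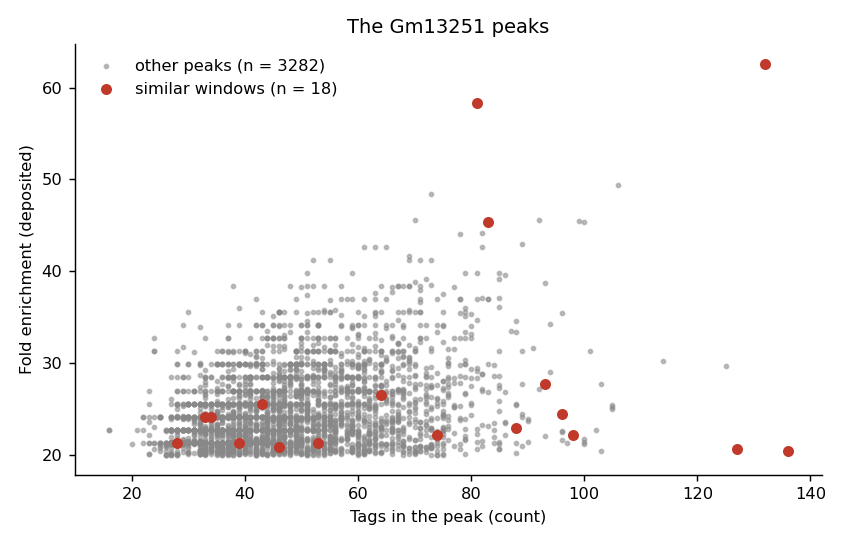
Deposited fold enrichment (vertical axis, ratio) against the number of tags (horizontal axis, count) for the 3300 Gm13251 peaks, with the 18 similar windows in red. The 2 highest folds, 62.61 and 58.34, and the 2 highest tag counts, 136 and 132, belong to red points.

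A search over all single-copy windows returned no sharp motif, although a model of 1 motif can miss a sequence that only few windows hold, such as the word above. The 20-base motif learned on the 1760 such windows of odd-numbered chromosomes was a weak purine-rich pattern, ANANANAGANNNAGNNANNN, with 8.36 bits of information. On the held-out chromosomes it matched 13.9% of 1467 Gm13251 windows (204 windows, 95% Wilson interval 12.2% to 15.8%) and 9.99% of windows 1 kb away. The share in the other FLAG samples ranged from 0.847% for Gm13051 to 43.0% for Zfp810, with a median of 6.80%, and 4 of the other 17 were higher (difference from the mean of the others 3.11 percentage points, exact permutation test, p = 0.889, adjusted p = 1.0).

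Most Gm13251 windows were unique when counted by exact 24-base words. Exact words leave out diverged copies, so this does not place the windows outside repeats. By blastn, 613 of the 3300 windows (18.6%) fell in groups of at least 5 similar windows. The largest of these groups, with 416 windows, had a median copy number of 1. The median copy number of exact 24-base words in mm9 was 1 for 88.97% of the windows and at least 10, here called multi-copy, for 5.18% (171 of 3300, interval 4.48% to 5.99%). The other FLAG samples ranged from 1.0% for Zfp882 to 91.9% for Gm21082, with a mean of 21.9% ± 24.7 (SD, n = 17), so the difference lay within the spread between samples (exact permutation test, p = 0.5). Mean GC was 45.3% against 50.2% ± 5.83 (SD, n = 17), from 42.4% for Zfp617 to 62.6% for Gm13152 (exact permutation test, p = 0.389). The mean number of CpG per window was 1.86 against 5.30 ± 3.53 (SD, n = 17), between 1.07 for Zfp617 and 14.1 for Gm13152, and 15 of the other 17 samples were higher (exact permutation test, p = 0.333). A simple tandem repeat of at least 24 bases was found in 6.55% of the windows against 6.75% ± 7.81 (SD, n = 17), where Gm13051 had the lowest share with 0.182% and Zfp534 the highest with 32.7% (exact permutation test, p = 0.944).

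The number of peaks and their width also stayed within the spread of the FLAG samples. On the log10 scale the number was 3.52 for Gm13251 against 2.64 ± 0.61 (SD, n = 17; exact permutation test, p = 0.278). The median called width of 263 bp was 2.42 on the log10 scale against 2.57 ± 0.28 (SD, n = 17), between 2.14 for Gm13212 and 3.36 for Gm13225 (exact permutation test, p = 0.556). Every adjusted p among these measures was at least 0.611.

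**Figure D5:**
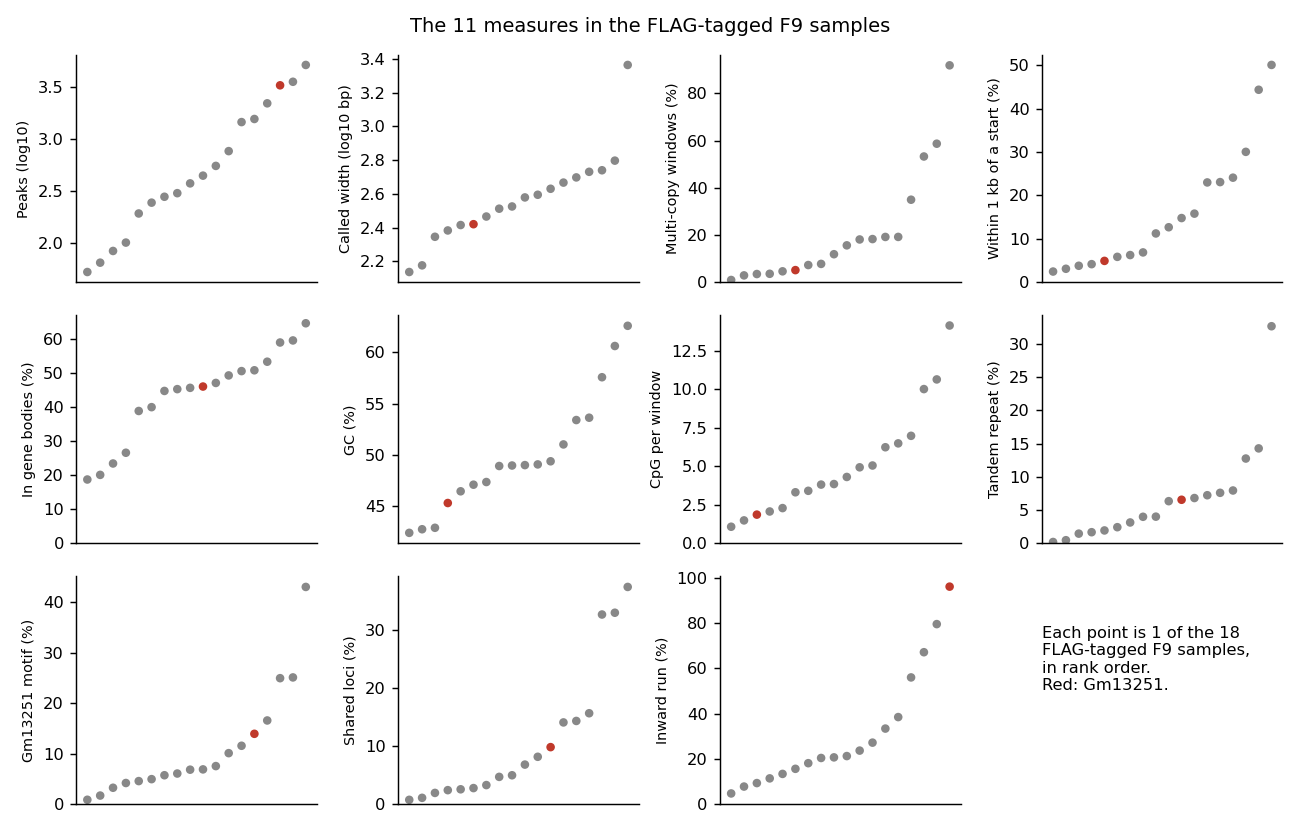
The 11 measures (vertical axes, units as labelled) in the 18 FLAG-tagged F9 samples, each panel in rank order with Gm13251 in red. Gm13251 is at the end of the range only for the share of peaks with an inward run, at 96.2%, and 2 samples exceed it in the number of peaks.

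Gm13251 summits were spread over gene bodies and intergenic sequence. By the GENCODE M1 annotation of mm9, 46.1% of the summits (1520 of 3300, interval 44.4% to 47.8%) lay in a gene body, and gene bodies cover 41.3% of the sequenced bases. The other FLAG samples had a mean of 43.4% ± 13.9 (SD, n = 17), from 18.7% for Gm13051 to 64.7% for Zfp46 (exact permutation test, p = 0.833). Summits outside exons made up 1425 of the 1520, while 95 lay in exons, 38 of them in coding sequence. Close to gene starts, at a distance of at most 1 kb, were 4.94% of the summits (163 of 3300, interval 4.25% to 5.73%), against 16.6% ± 14.3 (SD, n = 17) in the others, from 2.49% for Gm21082 to 50.05% for Gm13152 (exact permutation test, p = 0.444). The median distance to a transcript start was 19632 bp, and 526 summits were over 100 kb away.

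The strongest peaks had no common place. After the 2 intergenic peaks shown above came chr19:41707772-41707971 (fold 49.38, 106 tags) in an intron of Slit1, a guidance cue for growing axons, in a multi-copy repeat of median copy number 60. The Frmd6 peak (fold 48.38, 73 tags) lay 296 bp from a transcript start of that gene, the only one of the 10 highest within 1 kb of a start. Next by fold were an intergenic peak 29209 bp from a start of the integrin gene Itga11 (45.54) and one 5740 bp from a start of the glycine decarboxylase gene Gldc (45.54). The remaining 4 were the Adam32 peak (45.52), a peak 11769 bp from a start of Dab1 (45.38), the chr11 peak shown above (45.38) and one 1584 bp from a start of the peptidase gene Pepd (44.14). All 10 had an inward run, of 7 to 35 bases. Their deposited false discovery rate ran from 1.66% for the Frmd6 peak to 33.33% for the peak of highest fold. Among the peaks with the most tags, 1 was the strongest peak by fold (132 tags) and 1 lay 265460 bp from a start of Slc7a14 (127 tags). Another lay 101778 bp from a start of Cdh5, the endothelial cadherin (125 tags, false discovery rate 42.86%). A further peak lay 2322 bp from a start of Mir138-2 (114 tags).

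Most of the genes with the largest numbers of summits were long. The annotated model of Fgfr2, a fibroblast growth factor receptor gene, spanned 3009 kb and had 8 summits, at 0.266 per 100 kb. This span also covers sequence of another gene, Fam175b, and some of the summits lay in both. Auts2 had 6 summits over 1106 kb. Esrrg, an orphan nuclear receptor, Nell1 and the readthrough model Gm20388 had 4 each, at 0.66, 0.449 and 0.0902 summits per 100 kb. Scamp5, a membrane protein of secretory vesicles, stood apart in density with 3 summits in 26.7 kb (11.2 per 100 kb). Flt1, 4930402H24Rik and Kcnd3 had 3 each, between 1.35 and 1.82 per 100 kb. For comparison, whole chromosomes with peaks ran from 0.594 to 1.92 peaks per Mb of assembly. Gm20388 lay within that range and below its own chromosome 8, at 0.972 per Mb, and the other genes named here lay above the range. All were picked for their counts, which grow with length, so the densities carry no test.

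The share of genes with a Gm13251 peak nearby was computed for pathways relevant to F9 cells and for all genes. Of 22367 protein-coding genes, 1016 (4.54%) had a Gm13251 summit within 10 kb of a transcript start. Of the pluripotency list 2 of 25 genes did, of KAP1 and heterochromatin genes 1 of 31, of endoderm genes 0 of 19, of retinoic acid pathway genes 1 of 16 and of zinc finger genes 20 of 429 (4.66%). The genes were Stat3, the transcription factor downstream of LIF (5866 bp from a start, fold 23.57), Dppa4, a pluripotency-associated chromatin protein (8326 bp, 26.55), Ehmt1, an H3K9 methyltransferase (2221 bp inside the gene, 26.32), and Cyp26a1, which degrades retinoic acid (8499 bp, 28.28). The 5 nearest zinc finger genes were Zfp106 (313 bp), Zfp592 (723 bp), Zbtb9 (862 bp), Zbtb34 (956 bp) and Zfp667 (1621 bp). All of these peaks except that near Zfp667, which had the highest fold of them with 38.29, had an inward run.

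Gm13251 shared few loci with other FLAG samples apart from Gm13225. Windows of all FLAG samples were joined into loci where neighbours overlapped by at least 25% of the window, directly or through a window between them. Of the 3300 Gm13251 loci, 324 (9.82%, interval 8.85% to 10.9%) were shared with another FLAG sample. The others had 10.97% ± 12.1 (SD, n = 17), from 0.727% for Gm13051 to 37.4% for Zfp810 (exact permutation test, p = 1.0). The Gm13225 sample, whose called peaks had a median width of 2310 bp, accounted for 268 of them. These were 8.12% of the Gm13251 loci and 7.51% of the Gm13225 loci. Counted pair by pair, the 2 samples shared 263 loci. With only the 11 samples that had the same thresholds, which leaves out Gm13225, 1.18% of the Gm13251 loci were shared. Gm13247 followed with 18 loci (6.498% of its own), and Gm13157 and Zfp882 with 13 each (2.935% and 13% of their own). All these samples were called over the same input and FLAG control, so their peaks are not independent of one another.

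Several HA-tagged samples also shared loci with Gm13251. Counted pair by pair, Gm13235 shared 158 loci with Gm13251 (8.82% of its loci), Zfp457 128 (7.06%), Zfp759 114 (13.97%) and Gm13145 97 (21.9%). These 4 samples had an inward run in 73.7% to 88.9% of their peaks, and Gm13235 and Zfp457 had looser thresholds than Gm13251. The input of the 4 was shared with Gm13251, while their control ChIP was HA. Other HA-tagged samples with a high share of inward runs varied in sharing. Zfp872 (92.6%) shared 37 loci, 19.7% of its own, but Gm6710 (95.6%) shared 18 (4.18%) and Zkscan17 (78.2%) 13 (1.17%). Whether the runs had a part in the sharing was not tested.

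The Gm13251 loci called in the most FLAG samples were few. One at chr15:37030200-37030399 was called in 5 samples (fold 35.58, 71 tags) and lay 93022 bp from a transcript start, and 4 further loci were called in 4 samples. They were chr17:90333430-90333629, chr9:68501321-68501520 near Rora (172 bp from a start of this nuclear receptor gene), chr5:123844505-123844704 near Mlxip (202 bp from a start of this glucose-responsive factor) and chr2:30563328-30563527. Gm13152 was among the samples at all 5, and all 5 had an inward run. The windows near Rora and Mlxip and that on chromosome 2 were CpG-rich, with 21, 15 and 26 CpG.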

How the data were processed

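The authors mapped reads of the Gm13251 ChIP to mm9 with Bowtie (--best, the first 3 bases trimmed), which places a read with several equal matches at 1 of them, and called peaks with MACS 1.4.2 per sample, without pooling. They kept peaks called over both input and the FLAG control ChIP and set each to 200 bp around its summit. The deposited table gives per peak the tags as a raw count, a score that is 10 times the negative log10 of the p-value, a fold enrichment, which is a ratio to the local background, and a false discovery rate in percent. The positions and called widths are in bp. Total reads per library are not in the table, so depth is unknown beyond the tags per peak. Rows under 1 name (244 peaks) matched no sample's labels and were not used.

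From the positions, sequence was read from mm9 (NCBIM37) with python 3.11.15 and numpy 2.4.6. Copy number is the median over the exact 24-base words of a window, both strands, with a minimum of 10 for multi-copy. Tandem repeats have a period of 1 to 6. The motif was learned by expectation maximisation, and its threshold was set so that 10% of windows 1 kb away pass. Similar windows were linked by blastn 2.17.0 (E of at most 1e-8, at least 60 bases). Genes came from GENCODE M1. Repeat annotation was not used here. Code was tested on simulated data.

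Groups are the labelled proteins, 1 sample each. Gm13251 was compared with the 17 other FLAG F9 samples by an exact two-sided permutation test over samples, adjusted by Benjamini-Hochberg over 11 measures, and Wilson intervals cover counting error only. The alternatives varied the samples, thresholds, window and definitions. Named were the 10 peaks of highest fold, the 5 with most tags, the 10 genes with most summits, listed genes within 10 kb of a summit (for zinc finger genes the 5 nearest), the 3 FLAG samples sharing most loci (with ties), the extremes of each measure and the 5 loci called in most samples. Of these, 1 peak and 1 gene are not reported here. The members and lists were chosen with earlier results of these data known.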

Additional observations from a re-analysis of the deposited data

How the results depend on the processing

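Of 66 alternative values for the 11 measures, 58 kept the direction of the difference between Gm13251 and the mean of the other samples. None of the 66 passed an adjusted p of 0.05, but only those over all 58 F9 samples could have. With 18 samples or fewer the exact p cannot fall below 0.0556, so for those alternatives the p says nothing about stability. The 8 that reversed were all far from significance (the lowest unadjusted exact p was 0.333), and the causes were not tested. With only peaks over 40-fold, of which Gm13251 had 22, the difference in the log10 number of peaks was -0.605 (0.881 before), in tandem repeats 4.37 percentage points and in the motif -8.50 points. With the 100 strongest peaks per sample, gene bodies differed by -1.16 points and tandem repeats by 3.00 points. Tandem repeats also reversed with the same-threshold samples (2.74 points) and in windows of 400 bp (9.41 points, where the A and T runs themselves can enter the window). Shared loci reversed when summits within 1 kb counted as shared (8.58 points).

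The share of peaks with an inward run was 63.3 to 79.1 points higher in Gm13251 than in the mean of the other FLAG samples under 6 alternatives chosen after seeing the data, and 50.1 points higher against all 58 F9 samples, where the unadjusted exact p was 0.0172 and the adjusted p 0.190. No paired analysis was possible because every protein had 1 sample. The number of samples, not of peaks, limits every test, and replicates of Gm13251 were not analysed here.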

Other observations

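The Gm13251 peaks held 13 other groups of at least 5 similar windows, none with a peak among the 10 highest by fold. The largest joined 416 windows, with a median fold of 23.69. Its most frequent 12-base word, agccaccatgtg, was in 48 of them and occurs 65603 times in mm9, and 212 Gm13225 windows also held it. An inward run was found for 400 of the 416. A group of 27 windows had a median copy number of 13, with an inward run beside all 27. A group of 15 had a median copy number of 1274 and an inward run beside 7. No repeat annotation was used, so these groups are not named. In the group of 18 windows described above, 16 overlapped a Gm13139 peak. No other group of at least 5 had most of its loci in another sample. The next highest number was 37 of 416, for Gm13225.

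Peak density differed between chromosomes, from 0.594 peaks per Mb on X (99 peaks) over 0.836 on chromosome 6 to 1.92 on chromosome 11. Chromosome Y, with a length of 15902555 bp in mm9, had 0 peaks. Unsequenced bases were not taken off any of these lengths, so the densities are per Mb of assembly and not of readable sequence.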
